A study of Mus musculus with 1699 samples.

Results

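The Nxph4-high neurons described here are 73 single cells from the ventral midbrain of perinatal mice. They were picked by a rule on 3 quantities: a total of more than 100000 reads, an Nxph4 level above 150 RPKM (reads scaled to transcript length and to sequencing depth) and an Slc6a3 level of 150 RPKM or less. The rule was applied to the cells of embryonic day 18.5 (E18.5), postnatal day 1 (P1) and postnatal day 7 (P7), and 695 of the 702 cells of these stages had enough reads. Members made up 73 of the 695 cells, or 10.5% (95% interval 8.32 to 13, exact Clopper-Pearson), and there were 17 at E18.5, 43 at P1 and another 13 at P7. The whole series holds 1699 cells.

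The study sorted eGFP-expressing cells by flow cytometry from mice that carry eGFP in the Pitx3 locus and profiled each cell by Smart-seq2, a plate method that reads transcripts along their full length. All 695 cells came from Pitx3eGFP/wt animals, given in the labels as heterozygous for Pitx3tm1Mli, so every cell had 1 of its Pitx3 alleles replaced by the reporter. Cells of E18.5 were freed with a neural tissue dissociation kit and cells of P1 and P7 with a kit for postnatal neurons, so the kit cannot be told apart from the stage where E18.5 is set against P1 or P7. ERCC spike-in RNA was added at E18.5 and in 1 of the 2 sets of P1 cells, and was left out of the other P1 set and of P7. Several animals were used at each stage, mice of both sexes were used in the study, and no cell is tied to an animal. Each stage therefore counted as 1 sample, no test between groups was run, and intervals given below cover counting error only.

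Neurexophilins are small secreted proteins that bind neurexins, the presynaptic adhesion molecules that organise synapses. Slc17a6 encodes the vesicular transporter that loads glutamate into synaptic vesicles, and Lypd1 encodes a membrane-anchored protein that modulates nicotinic acetylcholine receptors. Slc6a3 (Dat) encodes the plasma membrane dopamine transporter. Ventral midbrain cells that turned Pitx3 on include dopamine neurons with high Dat and cells with little Dat, some of which are glutamatergic or GABAergic.

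Nxph4 (ENSMUSG00000040258) lies on the minus strand at chr10:127525473-127534559 of GRCm38, Lypd1 (ENSMUSG00000026344) on the minus strand at chr1:125867622-125913101, and Slc17a6 (ENSMUSG00000030500) on the plus strand at chr7:51622006-51671119. Slc6a3 (ENSMUSG00000021609) lies on the plus strand at chr13:73536747-73578672. The study designed padlock probes for in situ detection of Nxph4 and Lypd1. It left Nxph4 out when it classified the tissue cells, because the gene was overrepresented in most of them. Of the 3 target sites of each gene, 2 are shown, those wholly in coding sequence of the transcripts named below. The probes bind cDNA copied from the RNA, so the sites mark the stretches of the transcripts whose copies the probes detect. Each site is given 5′ to 3′ on the transcript, and the capitals mark the 20 bases carried at the 3′ end of the probe.
Nxph4 target at chr10:127526594-127526633: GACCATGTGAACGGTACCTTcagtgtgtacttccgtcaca
Nxph4 target at chr10:127526288-127526327: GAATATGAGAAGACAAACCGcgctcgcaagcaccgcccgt
Lypd1 target at chr1:125873345-125873384: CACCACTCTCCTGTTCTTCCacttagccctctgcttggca
Lypd1 target at chr1:125873523-125873562: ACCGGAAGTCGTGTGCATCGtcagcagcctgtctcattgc
The Nxph4 sites shown fell in coding sequence of exon 2 of 2 (ENSMUST00000095266.2), and the Lypd1 sites shown fell in coding sequence of exon 3 of 3 (ENSMUST00000027582.9).

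The Nxph4 and Slc6a3 levels chose the members and are given as a description. Nxph4 ran from 151.8 RPKM in the lowest member to 1122 RPKM in the highest, with a median of 490. By stage, the lowest, median and highest Nxph4 levels were 264.7, 557.8 and 1013 RPKM at E18.5, 151.8, 472.8 and 1069 at P1, and 169.8, 402 and 1122 at P7. The cells nearest to the threshold were few: the 2 members just inside had 151.8 and 161.6 RPKM, and the 2 cells just outside had 147.6 and 145.7 RPKM. Only 13 cells with Slc6a3 of 150 RPKM or less had Nxph4 between 100 and 150 RPKM. The Slc6a3 limit hardly mattered for the members, since the highest Slc6a3 level among them was 32.6 RPKM, 69 of the 73 were at 10 RPKM or less and 19 were at 0. Nxph4 was also above 150 RPKM in 2 of the cells with Slc6a3 above 150 RPKM (0.881% of them, 0.107 to 3.15), with Slc6a3 at 194.7 and 202.3 RPKM. High Nxph4 and high Slc6a3 thus occupied almost separate cells at all 3 stages.

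**Figure D1:**
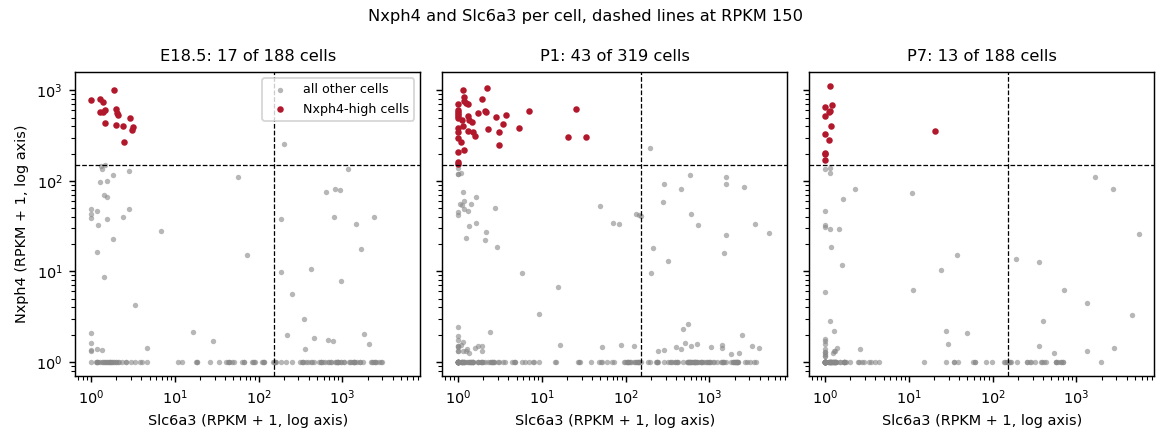
Nxph4 against Slc6a3 in each heterozygous cell at E18.5, P1 and P7, as RPKM + 1 on log axes, with dashed lines at 150 RPKM. Members (red) are 17 cells at E18.5, 43 at P1 and another 13 at P7, and almost no cell lies in the upper right corner where both genes are high.

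For comparison, the other cells are the 417 cells of the same stages that did not pass the rule and had fewer than 3 markers of any glial or vascular list above 10 RPKM. The remaining cells had 3 or more such markers and were left out, 120 of them at P7. Of the other cells, 220 had Slc6a3 of 150 RPKM or less and the rest had more (Slc6a3-high cells). Since the rule itself keeps Slc6a3-high cells out of the members, values against the 220 cells with low Slc6a3 are given as well, a comparison added after the data were seen. A further 59 of these 220 cells had Gad2 above 150 RPKM (Gad2-high cells). Members had a median of 1608232 reads (144240 to 4074395) and 7416 detected genes, and the other cells had 1488484 reads (240674 to 6017812) and 7556 detected genes. A gene is called present in a cell above 10 RPKM, and differences between shares of cells are given in percentage points with 95% Newcombe intervals.

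The labels call every cell a neuron. All 73 members had at least 5 of 8 neuron markers (Snap25, Stmn2, Stmn3, Syt1, Tubb3, Elavl3, Elavl4 and Nsg1) above 10 RPKM. Their summed level was 6390 RPKM at the median (2274 to 11409) against 7312 in the other cells (8.35 to 17727). The synaptic vesicle calcium sensor Syt1 stood apart from the rest, being present in 38 of 73 members (52.1%, 40 to 63.9) and in 88% of the other cells. Its median was 20.3 RPKM in members and 186.2 RPKM in the other cells. Compared with Gad2-high cells alone, Syt1 did not pass the fold rule given below.

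Some members also carried glial transcripts. At least 3 markers of a glial list were above 10 RPKM in 11 of 73 members (15.1%, 7.77 to 25.4), 1 at E18.5, 7 at P1 and another 3 at P7. The astrocyte and radial glia list (8 genes, all above 10 RPKM in at least 1 member) had 3 or more markers in 10 members, and its summed level was 27.4 RPKM at the median (0 to 6997) against 7.59 in the other cells (0 to 1826). The oligodendrocyte lineage list (10 genes) had 3 or more markers in 6 members, with a summed median of 20.5 RPKM against 19.3, and Sox10, Cspg4 and Gpr17 were above 10 RPKM in no member. Of 7 measured microglia markers 1 was above 10 RPKM in at least 1 member, and Cx3cr1, P2ry12, C1qb, Csf1r, Tyrobp and Aif1 in none. Of 7 measured vascular and blood markers 4 were above 10 RPKM in at least 1 member, and the endothelial markers Cldn5, Flt1 and Kdr in none. No member had more than 1 marker of either list above 10 RPKM, and both summed levels were 0 RPKM at the median in members and in the other cells. The other cells were chosen to hold fewer than 3 markers and the members were not, so this difference is partly set by that choice. In the 62 members with fewer than 3 such markers, the astrocyte and radial glia list still had a summed median of 20.4 RPKM. Without the 11 members with glial markers, the difference in share from the other cells was 35.9 points for Slc17a6, 57.3 for Lypd1, −58.4 for Th and −25.2 for Pitx3.

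Of the genes of glutamatergic transmission, Slc17a6 was the one that differed by the fold rule given below. In members, its lowest, median and highest levels were 0, 218.1 and 500 RPKM at E18.5, 0.456, 214.3 and 581 RPKM at P1, and 7.49, 264.99 and 495 RPKM at P7. In the other cells they were 0, 29 and 268.7 RPKM at E18.5, 0, 33.8 and 376 RPKM at P1, and 0, 21.6 and 353 RPKM at P7. The ranges overlapped at each stage, while the member medians lay far above those of the other cells. Slc17a6 was present in 70 of 73 members (95.9%, 88.5 to 99.1) and in 59.2% of the other cells (difference 36.7 points, 28 to 42.1), and against the 220 cells with low Slc6a3 the difference was 22.3 points (13.2 to 29). A level above 150 RPKM was reached by 74% of members and 10.1% of the other cells. The related vesicular transporters were nearly absent, with Slc17a7 present in 1 of 73 members and Slc17a8 in 0 of 73, which allows a share of up to 4.11%. Gad2-high cells also carried Slc17a6 (54 of 59 cells, 91.5%), so its presence did not separate them from the members.

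For each gene the mean RPKM over members was set against the mean over the comparison cells at each stage, as the log2 ratio of (mean + 1). A gene is said to pass the fold rule when this ratio was at least 1, or at most −1, at all 3 stages with a mean of at least 10 RPKM in the higher group. This rule takes no account of spread between animals. Against the other cells, 73 of 7718 genes passed it as higher (0.946%) and 70 as lower (0.907%), with a median log2 ratio over all these genes of −0.03. Nxph4 is among the 73 and Slc6a3 among the 70, as the rule requires. Of 8 genes of glutamatergic transmission, 1 passed as higher (Slc17a6, log2 ratios 2.63, 1.95 and 2.07 at E18.5, P1 and P7) and 0 as lower, and the list median was −0.02 over 5 genes with enough signal.

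Lypd1 followed the same order. Its lowest, median and highest levels in members were 0, 107.8 and 541 RPKM at E18.5, 0, 111.8 and 589 RPKM at P1, and 0, 151.8 and 394 RPKM at P7. Its median in the other cells was 0 RPKM at all 3 stages, with highest values of 308.2, 369.6 and 487 RPKM. Lypd1 was present in 59 of 73 members (80.8%, 69.9 to 89.1) and 84 of 417 other cells (20.1%), a difference of 60.7 points (49.4 to 68.9), and the log2 ratios were 2.82, 2.88 and 2.54. Against the cells with low Slc6a3 the difference was 57.6 points (45.6 to 66.6). Slc17a6 and Lypd1 were present together in 57 of 73 members (78.1%), in 12.2% of the other cells and in 25.4% of Gad2-high cells. Most members thus carried Slc17a6 and Lypd1 beside Nxph4, although 14 of 73 members had Lypd1 at 10 RPKM or less.

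GABAergic genes were present in a minority of members. Gad2, which makes GABA from glutamate, was present in 13 of 73 members (17.8%, 9.84 to 28.5) and 20.6% of the other cells (difference −2.82 points, −11 to 8.11). Against the cells with low Slc6a3, which include the Gad2-high cells, the difference was −17.2 points (−26.8 to −5.26). Gad1, which makes GABA from the same substrate, was present in 7 of 73 members (9.59%), and either enzyme in 18 of 73 (24.7%) against 24% of the other cells. The vesicular GABA transporter gene Slc32a1 was present in 0 of 73 members, which allows a share of up to 4.11%, and in 28 of 417 other cells (6.71%). Slc17a6 was present without Th and Gad2 in 43 of 73 members (58.9%) and in 4.32% of the other cells.

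Genes of dopamine handling were the lowest group in the members relative to the other cells, and they did not all behave alike. Of 13 such genes, 6 passed the fold rule as lower and 0 as higher, with a list median of −1.35 over 12 genes. The 6 were Th, Slc10a4, Aldh1a1, Gch1, Drd2 and Slc18a2. Because Slc6a3 chose the members, this list is closely tied to the rule, and against the cells with low Slc6a3 5 genes passed as lower with a median of −0.53. Against Gad2-high cells 2 passed as lower (Aldh1a1 and Slc10a4) and 0 as higher, with a median of −0.70 over 11 genes. Th, Gch1, Drd2 and Slc18a2 did not pass in that comparison.

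Th (ENSMUSG00000000214, minus strand, chr7:142892752-142931128) encodes tyrosine hydroxylase, the rate-limiting enzyme of dopamine synthesis. Its median in members was 5.03 RPKM at E18.5, 2.71 RPKM at P1 and 1.37 RPKM at P7, with highest values of 598, 360 and 237.5 RPKM. In the other cells the medians were 1949, 1421 and 1391 RPKM, with highest values of 7179, 6333 and 5906 RPKM. Members lay at the bottom of the range of the other cells at each stage. Th was present in 22 of 73 members (30.1%, 19.9 to 42) and 85.9% of the other cells (difference −55.7 points, −65.5 to −43.8), and the log2 ratios were −4.67, −5.32 and −4.79. Against the cells with low Slc6a3 the difference was −43.5 points (−54.3 to −30.6).

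Slc10a4, which encodes a protein of monoamine vesicles, was present in 19.2% of members and 80.3% of other cells, and in 65% of the cells with low Slc6a3. Drd2, the dopamine autoreceptor, was present in 6.85% of members against 49.6%. Gch1, which starts the synthesis of the tyrosine hydroxylase cofactor, was present in 15.1% against 49.6%. Aldh1a1, the aldehyde dehydrogenase of ventral dopamine neurons, was present in 6 of 73 members (8.22%) against 44.1% of the other cells, and its highest level was 606 RPKM in a member against 27287 RPKM in another cell.

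The enzyme and the vesicular transporter that act after tyrosine hydroxylase were retained in most members. Ddc, which makes dopamine from L-DOPA, was present in 51 of 73 members (69.9%, 58 to 80.1), against 85.1% of the other cells and 74.1% of the cells with low Slc6a3. The difference from the latter was −4.23 points (−16.7 to 6.94). Slc18a2, which loads monoamines into vesicles, was present in 49 of 73 members (67.1%), against 81.3% and 67.3%, and the difference from the cells with low Slc6a3 was −0.15 points (−13 to 11.5). Against all non-members, which include the cells with glial or vascular markers, the direction turned, to 2.66 points for Ddc and 4.1 points for Slc18a2. The mean level of Slc18a2 was lower than in the other cells at each stage (log2 ratios −1.85, −2.29 and −1.15). Ddc and Slc18a2 were present together in 39 of 73 members (53.4%) and in 73.9% of the other cells, whereas Th, Ddc and Slc18a2 were all present in 18 of 73 (24.7%) against 68.3%.

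Members with Th were a small graded set. Th was at 10 RPKM or less in 51 members, between 10 and 150 RPKM in 12 and above 150 RPKM in 10, whose lowest, median and highest levels were 155.2, 251.1 and 598 RPKM. The 22 members with Th and the 51 without it had Slc17a6 in 95.5% and 96.1%, Lypd1 in 81.8% and 80.4%, and Neurod1 in 59.1% and 56.9%. The set with Th was not uniform, with Neurod1 in 30% of the 10 members with Th above 150 RPKM and 83.3% of the 12 members with Th between 10 and 150 RPKM. En1 was present in 80% of those 10 members and 27.5% of the 51 members without Th. Ddc was present in 95.5% of members with Th and 58.8% of those without, and Slc18a2 in 86.4% and 58.8%. None of the 22 members with Th had Slc6a3 above 10 RPKM, and 4 of the 51 without Th did.

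**Figure D2:**
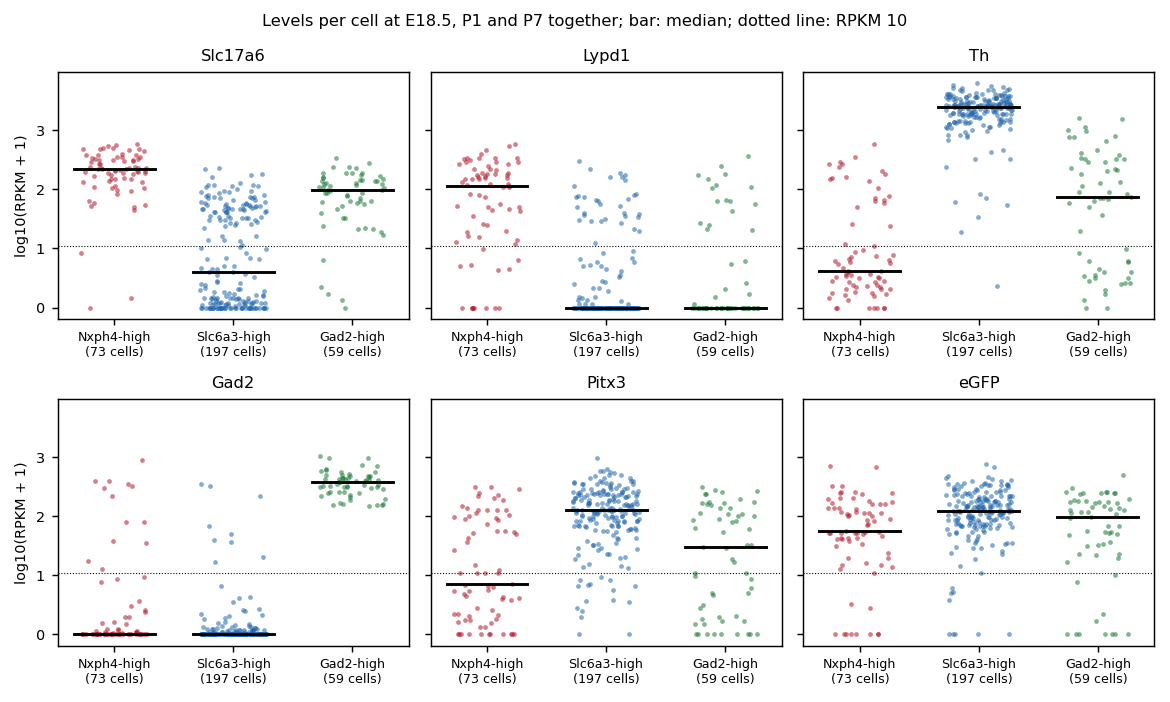
Levels of Slc17a6, Lypd1, Th, Gad2, Pitx3 and eGFP in single cells, as log10(RPKM + 1), in Nxph4-high cells (73), Slc6a3-high cells and Gad2-high cells (59). Bars mark medians and the dotted line marks 10 RPKM; Lypd1 has a median of 111.8 RPKM in the Nxph4-high cells, and Th a median of 3.18 RPKM.

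Factors of the midbrain dopamine lineage ranged from common to infrequent in the members. Of 15 genes on this list, which includes the reporter, 1 passed the fold rule as higher (Lmx1a) and 1 as lower (En1), with a list median of 0.15 over 10 genes. With Gad2-high cells as the comparison, 0 passed in either direction, so neither Lmx1a nor En1 did, and the median was 0.38 over 9 genes. Nr4a2 (Nurr1), a nuclear receptor needed by midbrain dopamine neurons, was present in 70 of 73 members (95.9%) and 91.8% of the other cells, with medians of 522 and 237.4 RPKM. Foxa2, a floor plate factor, was present in 86.3% of members and 71% of the other cells. Lmx1a, which specifies the dopamine lineage, was present in 65 of 73 members (89%, 79.5 to 95.1) and 65.7% of the other cells. Its log2 ratios were 1.43, 1.09 and 1.29 against the other cells and 1.15, 0.84 and 1.00 against the cells with low Slc6a3. Otx2, a factor of forebrain and midbrain and of ventral tegmental neurons, was present in 52.1% of members and 33.8% of the other cells. En1, a midbrain and hindbrain factor that maintains dopamine neurons, was present in 26 of 73 members (35.6%) and 83.9% of the other cells (difference −48.3 points, −58.8 to −36.2), and against the cells with low Slc6a3 the difference was −42.1 points (−53.3 to −29.2).

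The reporter and the gene it reports did not run together. Pitx3 (ENSMUSG00000025229, minus strand, chr19:46135685-46148326) encodes a homeodomain factor of midbrain dopamine neurons. Its lowest, median and highest levels in members were 0, 54 and 312.7 RPKM at E18.5, 0, 4.54 and 319.5 RPKM at P1, and 0, 3.35 and 224.9 RPKM at P7. In the other cells its medians were 69.8, 82.2 and 44.7 RPKM. Pitx3 was present in 34 of 73 members (46.6%, 34.8 to 58.6) and 71.9% of the other cells (difference −25.4 points, −37.1 to −13.2), and against the cells with low Slc6a3 the difference was −7.52 points (−20.3 to 5.59). By stage, 70.6% of members had Pitx3 at E18.5, 39.5% did at P1 and 38.5% did at P7. eGFP was present in 63 of 73 members (86.3%) and 86.6% of the other cells (difference −0.27 points, −10.4 to 6.80). It was present without Pitx3 in 31 of 73 members (42.5%), in 17.5% of the other cells and in 27.3% of the cells with low Slc6a3. Neither eGFP nor Pitx3 was present in 8 of 73 members (11%), 10.6% of the other cells and 18.6% of the cells with low Slc6a3.

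Several transcription factors that the study named for its branches were common among the members. That list was chosen by the study on these same cells, so its direction is no independent evidence. It holds factors named for cells with low Dat and, for cells with high Dat, Zfhx3, Pou2f2 and Id4. Of the 12 genes on it, 5 passed the fold rule as higher (Nfix, Tcf4, Zfp536, Zfp385b and Id2) and 2 as lower (Pou2f2 and Id4), with a list median of 1.79 over 10 genes. Against the cells with low Slc6a3, 2 passed in each direction and the median was 1.34.

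Nuclear factor I proteins bind a shared DNA motif and take part in neuronal and glial differentiation. Nfix (ENSMUSG00000001911, minus strand, chr8:84699876-84800344) had a lowest, median and highest level in members of 6.06, 130.96 and 502 RPKM at E18.5, 0, 133.4 and 505 RPKM at P1, and 0, 195.3 and 628 RPKM at P7. Its medians in the other cells were under 1 RPKM at each stage (0.738, 0.806 and 0.0682 RPKM). Nfix was present in 67 of 73 members (91.8%, 83 to 96.9) and 36.9% of the other cells, and against the cells with low Slc6a3 the difference was 53.1 points (42.3 to 60.7). Nfib was present in 79.5% of members and 25.2% of the other cells, and Nfia in 61.6% and 10.6%. At P7 their log2 ratios were 0.52 and 0.11, and neither passed the fold rule. All 3 factors were present in 37 of 73 members (50.7%), 6.24% of the other cells and 10.9% of the cells with low Slc6a3, and none of them in 3 of 73 members and 56.4% of the other cells.

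Tcf4, an E-protein partner of proneural factors, was present in 65 of 73 members (89%) and 57.3% of the other cells, with log2 ratios of 1.79, 2.01 and 2.01. Zfp536, a zinc finger factor, was present in 64.4% of members, 13.4% of the other cells and 50.8% of Gad2-high cells, so it was shared with the latter. Id2, an inhibitor of proneural factors, was present in 46.6% against 14.1%, and its relative Id4 in 4.11% against 27.6%. The zinc finger gene Zfp385b was present in 34.2% against 13.2%, and without the 11 members with glial markers it did not pass (log2 ratio 0.26 at P7). The POU factor gene Pou2f2 was present in 9.59% against 25.7%.

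Of 21 other transcription factors, 3 passed as higher (Neurod1, Chd7 and Zeb2) and 0 as lower, with a list median of 0.28 over 10 genes. Relative to the cells with low Slc6a3, 1 passed as higher (Neurod1) and 1 as lower, with a median of 0.37. Neurod1, a proneural factor, had a median of 17.8 RPKM at E18.5, 41.9 RPKM at P1 and 8.57 RPKM at P7 in members and of 0 at all 3 stages in the other cells. It was present in 42 of 73 members (57.5%, 45.4 to 69) and 33 of 417 other cells (7.91%), with log2 ratios of 2.83, 2.50 and 3.16. Neurod1 was also rare in both other neuron groups, at 1.52% of Slc6a3-high and 8.47% of Gad2-high cells. Chd7, a chromatin remodeller, was present in 79.5% of members against 33.3%, and in 52.5% of Gad2-high cells. Zeb2, a zinc finger homeobox factor, was present in 31.5% against 16.5%, while 66.1% of Gad2-high cells had it. Without the 11 members with glial markers Chd7 did not pass (log2 ratio 0.96 at P7).

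**Figure D3:**
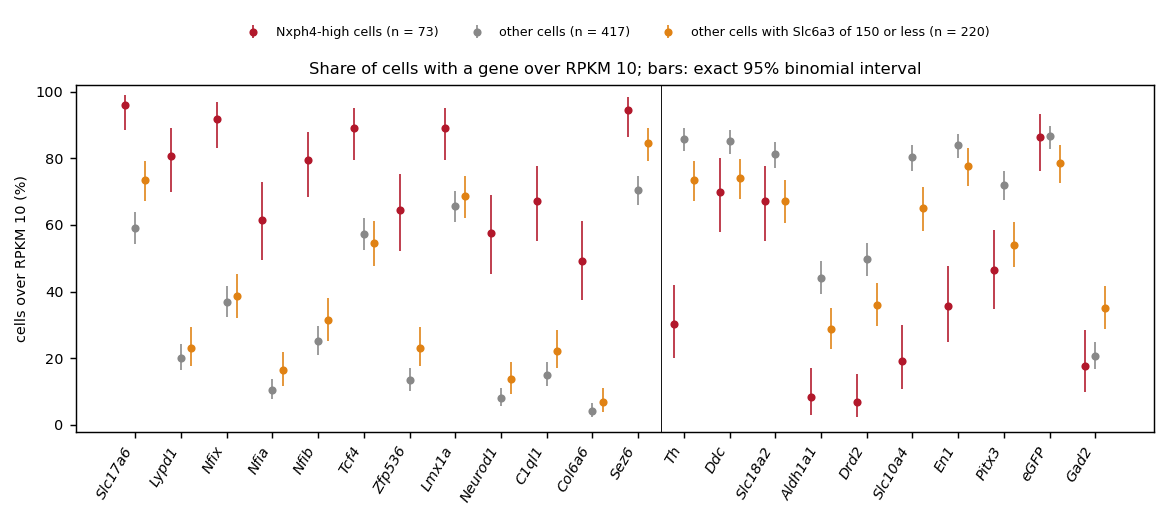
Percentage of cells above 10 RPKM for 22 genes in the 73 members, the 417 other cells and the 220 other cells with Slc6a3 of 150 RPKM or less, with exact 95% intervals. Slc17a6 reaches 95.9% in members, Th 30.1% and eGFP 86.3%, and for Ddc and Slc18a2 the members lie close to the other cells with low Slc6a3.

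Leaving aside Nxph4, the 15 genes with the largest smallest ratio over the 3 stages were Dmrta2os, Lamp5, Col6a6, C1ql1, Lypd1, Neurod1, Brinp3, Fam19a2, Gpr149, Hrh1, Hes5, Ust, Nfix, Slc17a6 and Sez6. Dmrta2os is annotated as a non-coding antisense transcript, and it was present in 31 of 73 members (42.5%, 31 to 54.6) and 5 of 417 other cells (1.2%). It lies on the minus strand at chr4:109976738-109977813 and does not overlap Dmrta2, annotated on the plus strand at chr4:109978053-109983687. Its log2 ratios were 4.04, 4.36 and 3.55, and it was present in 1 of 59 Gad2-high cells and in 0.508% of Slc6a3-high cells.

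C1ql1 encodes a secreted synapse-organising protein of the C1q family. Its median in members was 130.5 RPKM at E18.5, 26.2 RPKM at P1 and 7.64 RPKM at P7, and 0 in the other cells at all 3 stages. It was present in 49 of 73 members (67.1%, 55.1 to 77.7) and 63 of 417 other cells (15.1%), a difference of 52 points (40 to 62.2), and of 44.9 points (32 to 55.7) against the cells with low Slc6a3. Col6a6, a collagen chain, was present in 36 of 73 members (49.3%) and 17 of 417 other cells (4.08%), with log2 ratios of 2.75, 4.19 and 3.34.

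Sez6, a membrane protein that shapes dendrites and excitatory synapses, was also widespread. It was present in 69 of 73 members (94.5%) with a median of 250 RPKM, and in 70.5% of the other cells with a median of 41.3 RPKM. Brinp3, of a family of neuronal secreted proteins, was present in 72.6% of members against 16.5%. Fam19a2, which encodes a secreted chemokine-like protein, was present in 69.9% against 18.7%. Ust, a sulfotransferase of glycosaminoglycans, was present in 45.2% against 3.60%, and Gpr149, an orphan receptor, in 45.2% against 11.5%. Hrh1, a histamine receptor, was present in 17 of 73 members (23.3%) against 4.08%.

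A few of the 15 rested on small numbers of cells. Lamp5, a lysosome-associated membrane protein of neurons, was present in 11 of 73 members, 1 at E18.5, 8 at P1 plus 2 at P7, and in 6 of 417 other cells. Hes5, a Notch target, was present in 14 of 73 members (19.2%) and 7.19% of the other cells. Without the 11 members with glial markers its log2 ratios were 2.84, 0.34 and 0.48 and it did not pass the fold rule.

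A list of subgroup genes of cells with low Dat was likewise chosen on these same cells. Of its 22 genes, 13 were higher by the fold rule and 0 lower, with a median of 1.48 over 20 genes. Besides Lypd1, Sez6, Brinp3, Fam19a2, Col6a6 and Ust it holds Grin3a, which was also higher. Without the members with glial markers 11 of its genes passed, and against the cells with low Slc6a3 7 passed with a median of 1.07.

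**Figure D4:**
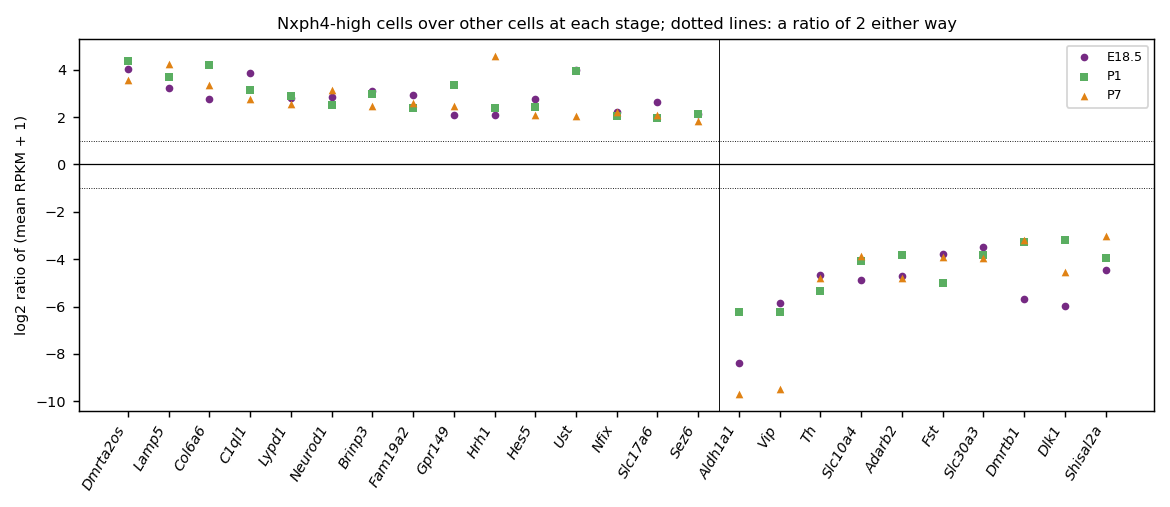
Log2 ratio of (mean RPKM + 1) in members over the other cells at E18.5, P1 and P7 for the 15 genes higher and the 10 genes lower by the largest smallest ratio, with dotted lines at 1 and −1. The choice of the 25 genes sets their side at all 3 stages, and their ratios run from Aldh1a1 (−8.37, −6.25 and −9.68) to Dmrta2os (4.04, 4.36 and 3.55).

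Of the family of the defining gene, Nxph1 and Nxph3 were each present in a minority of members. Of 22 neurexophilins, neurexins and neurexin partners, 2 passed the fold rule as higher (C1ql1 and Cbln1) and 1 as lower (Cbln4), with a list median of 0.09 over 14 genes. When the cells with low Slc6a3 were the comparison, 1 passed as higher (C1ql1) and 0 as lower, with a median of −0.09 over 16 genes. Nxph1 was present in 27.4% of members and 8.63% of the other cells, with log2 ratios of −1.13, 1.52 and 0.21, and Nxph3 in 38.4% and 30.5%. Of the neurexin genes, which encode the receptors of neurexophilins, Nrxn2 was present in 91.8% of members and 76.5% of the other cells, and Nrxn3 in 54.8% and 79.6%. The cerebellins are secreted linkers between neurexins and postsynaptic receptors. Cbln1 was present in 43.8% of members and 16.5% of the other cells, and in 55.9% of Gad2-high cells. Cbln4 was present in 43.8% against 56.8%, with a mean log2 ratio below −1 at each stage.

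Receptors for transmitters showed few members of each family that differed. Of 18 ionotropic glutamate receptor genes, 2 passed as higher (Grin3a and Grik2) and 1 as lower (Grik3), with a median of −0.01 over 12 genes. Compared with the cells with low Slc6a3, 2 passed as higher and 0 as lower, with a median of −0.12 over 11 genes. Compared with Gad2-high cells, 0 passed as higher and 1 as lower, with a median of 0.17 over 10 genes. Grin3a, an NMDA receptor subunit that lowers calcium entry, was present in 72.6% of members and 27.8% of the other cells. The kainate receptor subunit genes Grik2 and Grik3 were present in 58.9% against 21.8% and in 8.22% against 35.5%. The AMPA subunit gene Gria2 was present in 91.8% of members and 92.1% of the other cells. Of 16 GABA receptor genes, 0 passed in either direction and the median was 0.23 over 10 genes.

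On a list of modulator receptors, trophic factors and their receptors, the genes that passed were lower in the members. The receptor genes Hrh1 and Gpr149, given above as higher, are not on this list. Of 25 genes, 5 passed the fold rule as lower (Chrna4, Chrna6, Chrnb3, Gfra1 and Bdnf) and 0 as higher, with a median of −1.15 over 12 genes. Chrna6 and Chrnb3, nicotinic receptor subunits of dopamine neurons, were present in 42.5% and 39.7% of members and in 65.5% and 65.7% of the other cells. In the cells with low Slc6a3 they were present in 49.5% and 45.9%. Gfra1, a GDNF co-receptor, was present in 42.5% against 66.4%, and the trophic factor gene Bdnf in 8.22% against 30.2%. Without the 11 members with glial markers Bdnf did not pass (log2 ratio −0.92 at P7). Against the cells with low Slc6a3, 1 of the 25 genes passed as lower, and the median was −0.36.

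Peptide genes divided. Of 24 neuropeptides and granins, 2 passed as higher (Adcyap1 and Scg2) and 3 as lower (Vip, Cck and Grp), with a median of −0.14 over 13 genes. Set beside the cells with low Slc6a3, 1 passed as higher and 2 as lower, with a median of 0.37 over 10 genes. Adcyap1, the precursor of the peptide PACAP, was present in 44 of 73 members (60.3%) and 32.6% of the other cells, and its log2 ratios were 1.88, 1.56 and 2.19. Scg2, a granin of dense core vesicles, was present in nearly every cell of both groups, with medians of 2764 RPKM in members and 1075 RPKM in the other cells. Cck, the precursor of cholecystokinin, was present in 12 of 73 members (16.4%) and 71% of the other cells, and Grp in 4.11% against 29.7%.

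Guidance and excitability genes differed at single genes. Of 28 axon guidance genes, 1 passed as higher (Nrp2) and 1 as lower (Nrp1), with a median of −0.11 over 13 genes. For the cells with low Slc6a3 as comparison, 2 passed as higher and 1 as lower, with a median of −0.05 over 14 genes. The semaphorin co-receptors Nrp2 and Nrp1 were present in 50.7% and 20.5% of members and in 27.6% and 42.7% of the other cells. Without the 11 members with glial markers Nrp1 did not pass (log2 ratio −0.93 at P1). Of 37 ion channel genes, 1 passed as higher (Kcnn2) and 1 as lower (Kcnip4), with a median of −0.43 over 13 genes. The counts against the cells with low Slc6a3 were 0 higher and 1 lower (Kcnip4), with a median of −0.34. Kcnn2, a calcium-activated potassium channel, was present in 69.9% of members against 36.2%. Kcnip4, an auxiliary subunit of A-type potassium channels, was present in 21.9% against 76.5%.

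Maturity lists and other classes gave little. None of 12 immature neuron genes passed in either direction (median −0.06 over 10 genes), and of 15 mature neuron genes 1 passed as lower (Syt1, median 0.02 over 12 genes). Of the 8 neuron markers 1 passed as lower, again Syt1, and the list median was −0.13. When Gad2-high cells were the comparison, 0 mature neuron genes and 0 neuron markers passed in either direction. Of 29 factors of neighbouring brain regions, 10 measured genes of other transmitter classes, 13 activity and stress genes and 4 genes of dividing cells, 0 passed in either direction, and only 2, 1, 5 and 0 of them had enough signal. None of the oligodendrocyte, astrocyte, microglia and vascular markers passed, and 2, 2, 0 and 0 of them had enough signal. The median of the astrocyte and radial glia list over its 2 genes was 1.25, and −0.40 without the 11 members with glial markers.

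The 10 genes lower by the largest smallest ratio were Aldh1a1, Vip, Th, Slc10a4, Adarb2, Fst, Slc30a3, Dmrtb1, Dlk1 and Shisal2a. Adarb2, a brain-specific member of the RNA-editing enzyme family, was present in 2 of 73 members (2.74%) and 45.8% of the other cells, and in 83.1% of Gad2-high cells. Dmrtb1, a DM-domain transcription factor, was present in 6.85% against 60.9%, and Dlk1, a Notch ligand relative of dopamine neurons, in 19.2% against 71.9%. Shisal2a was present in 1 of 73 members against 29.5%, and Slc30a3, the vesicular zinc transporter, in 0 of 73 members, which allows a share of up to 4.11%, against 10.6%. Fst, which binds activins, was present in 1 of 73 members against 11.3%. Vip was present in 6.85% of members and 20.6% of the other cells, and the ratio rested on a minority of the latter with very high levels, up to 19995 RPKM against 92.4 RPKM in the highest member.

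Against single groups the counts changed. Against Slc6a3-high cells, 1.5% of 7536 genes passed as higher and 1.18% as lower, a contrast that the rule fixes in part. Against the cells with low Slc6a3, 48 of 7714 passed as higher (0.622%) and 64 as lower (0.83%). Against Gad2-high cells, 79 of 7479 passed as higher (1.06%) and 69 as lower (0.923%). Without the 11 members with glial markers, 64 of 7691 passed against the other cells as higher (0.832%) and 76 as lower (0.988%). Lypd1, Nfix, Tcf4, Neurod1, C1ql1, Col6a6, Dmrta2os and Sez6 were higher, and Aldh1a1, Slc10a4, Adarb2 and Kcnip4 lower, in each of these comparisons, which all share the members. Th passed against each group except Gad2-high cells, where its ratio at E18.5 was −0.89, and Slc17a6 likewise passed against each except Gad2-high cells, with 0.87 at P1.

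The share of cells that passed the rule was 9.04% at E18.5 (17 cells, 5.36 to 14.1), 13.5% at P1 (43 cells, 9.93 to 17.7) and 6.91% at P7 (13 cells, 3.73 to 11.5). P1 exceeded P7 by 6.56 points (0.931 to 11.6) and E18.5 by 4.44 points (−1.53 to 9.78). Cells with glial or vascular markers were most common at P7, and among the 479 cells with fewer than 3 such markers the shares were 9.09%, 15.1% and 15.4%, with P7 above P1 by 0.26 points (−8.25 to 11.7). The order of P1 and P7 therefore depended on which cells were counted.

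Sets within a stage also varied. At E18.5 the plate labelled 18_1 held 12 members of 93 cells (12.9%) and the plate labelled 18_2 held 5 of 95 (5.26%), a difference of 7.64 points (−0.767 to 16.5). At P1 the set without spike-in held 34 (15.1%) and the set with spike-in 9 of 94 (9.57%), a difference of 5.54 points (−3.12 to 12.4). Within the members, C1ql1 was present in 20 of 34 cells without spike-in and 8 of 9 with spike-in at P1, and Neurod1 in 4 of 12 members of plate 18_1 and 5 of 5 of plate 18_2.

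The same rule was applied to the other conditions of the series, whose cells are not members. In heterozygous mice it was passed by 27.1% of cells at E13.5 (38 of 140, 20 to 35.3), 16.3% at E15.5 (23 cells) and 51.7% at P90. Slc17a6 was present in 81.6%, 91.3% and 100% of these cells, but Lypd1 in only 2.63%, 30.4% and 66.7%. Nfix was present in 13.2%, 87% and 68.5%, and Th in 50%, 34.8% and 54.8%. C1ql1 was present in 42.1%, 69.6% and 96.4%. High Nxph4 at E13.5 thus came without Lypd1, and mostly without Nfix, in contrast to the perinatal stages. Cells of P90 were freed with papain, and age and method cannot be told apart. The study states that neurons with high Dat were underrepresented in its single-cell data relative to tissue.

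Mice homozygous for Pitx3tm1Mli (Pitx3eGFP/eGFP), in which both Pitx3 alleles carry the reporter, were profiled at E13.5 and P1, with spike-in. The rule was passed by 26 homozygous cells at P1 (13.9%), against 13.5% of heterozygous cells, a difference of −0.42 points (−7.01 to 5.53), and against heterozygous cells with spike-in of −4.33 points (−11.6 to 4.40). At E13.5 it was passed by 59 homozygous cells (31.7%). The Pitx3 entry was still above 10 RPKM in 46.2% of the homozygous P1 cells that passed, against 39.5% of the heterozygous members, so it did not tell the genotypes apart. Heterozygous minus homozygous shares at P1 were 1.52 points for Slc17a6 (−8.71 to 16.7) and −1.34 points for Th (−23.3 to 18.4). Lypd1 was present in all 26 homozygous cells, a difference of −16.3 points (−30 to −1.04), Neurod1 differed by −21.8 points (−39.4 to 0.40) and Gad2 by 18.6 points (2.97 to 32.6). These genes were picked from several after their values were seen, and with 1 sample of each genotype the differences have no replicate check. All homozygous cells had spike-in and 34 of the 43 heterozygous members at P1 had none, and the part of this was not tested. In the 9 heterozygous members at P1 with spike-in, Lypd1 was present in 7 and Neurod1 in 6.

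**Figure D5:**
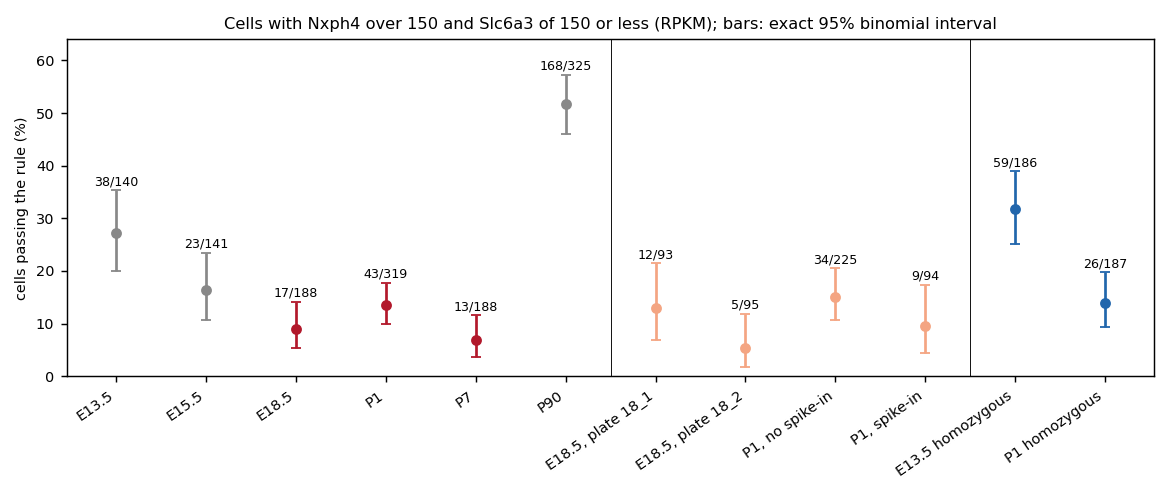
Percentage of cells that pass the rule in each condition, with counts and exact 95% intervals: heterozygous cells of 6 stages, the plates or sets of E18.5 and P1, and homozygous cells of E13.5 and P1. The shares of the 3 perinatal stages lie between 6.91% and 13.5%, below the 27.1% of E13.5 and the 51.7% of P90.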

How the data were processed

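Single eGFP-sorted cells were sequenced by Smart-seq2 in the study. The authors mapped reads with STAR to mm10 with eGFP and ERCC sequences added and counted uniquely mapped reads over Ensembl genes. They deposited, for each cell and 39468 entries, whole-number read counts and RPKM values made with rpkmforgenes. Here the counts gave the depth of each cell and the RPKM values gave levels. The counts were also thinned to 100000 reads for an alternative. Cells were grouped by the labelled stage and genotype. No animal is named, so no test was run and no p-value is given.

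The members were chosen by the Nxph4 and Slc6a3 values, and the members and the 25 gene lists were chosen with earlier results of these data known. Of 391 list genes 389 were found, 4 through an older name. Named genes were the 15 higher and 10 lower entries with the largest smallest ratio over the 3 stages, without Nxph4, Slc6a3, predicted genes and pseudogenes, plus Slc17a6, Lypd1, Th, Pitx3 and eGFP. Other named genes are list members that passed the fold rule or were chosen after their values were seen. The pseudocount was 1 RPKM, and ratios understate differences of low genes. The upper limit given beside a share of 0 is that of 3 counts. The comparison with low-Slc6a3 cells and the exclusion of members with glial markers were chosen after seeing the data. Values of a few list genes are not reported here. Entries without a symbol held 0.200% of reads. No 2 perinatal cells had identical counts. Gene positions are from GENCODE vM21 (GRCm38). Probe targets are the study's designed sequences, matched to GENCODE transcripts. The scripts ran in Python 3.11.15 with numpy 2.4.6, pandas 2.3.3, scipy 1.17.1 and matplotlib 3.10.9, and were tested on simulated data.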

Additional observations from a re-analysis of the deposited data

Results flagged for a closer look

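Both genes below had log2 ratios of members over other cells that changed sign between stages, and the difference between stages was not tested. Pts, an enzyme of tetrahydrobiopterin synthesis, had log2 ratios of −0.63 (E18.5), −1.2 (P1) and 1.24 (P7). Sst, the precursor of somatostatin, had log2 ratios of −1.84 (E18.5), 1.56 (P1) and −0.33 (P7).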

How the results depend on the processing

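No paired test was run, and the log2 ratios were taken within each stage. The share of cells that were members (10.5%) became 14.4% with Nxph4 over 50 RPKM, 7.77% without members that had glial markers, Gad2, Aldh1a1 or Vip, and 7.98% without P1. The difference in share from the other cells became, for Slc17a6 (36.7 points), 56.4 with presence above 50 RPKM, 49.4 against all non-members and 22.3 against cells with low Slc6a3, and for Lypd1 (60.7 points), 48.3 with presence above 50 RPKM. For Th (−55.7 points) it became −16.5 with presence above 1 RPKM, −36.6 against all non-members and −43.5 against cells with low Slc6a3, and for Pitx3 (−25.4 points), −11.9, −11 and −7.52 under the same alternatives. Genes higher by the fold rule (0.185% of all 39468 entries) became 0.355% with a mean of at least 1 RPKM and with no filter, 0.122% against cells with low Slc6a3 and 0.722% with the stages pooled, and genes lower (0.177%) became 0.773% with a mean of at least 1 RPKM and with no filter and 0.606% with the stages pooled. Differences that changed sign against all non-members included Hes5 (−5.74 points), Ddc (2.66), Slc18a2 (4.1), Sox6 (−0.22) and Msx1 (−0.23). With presence above 50 RPKM they included Sox6 (−0.24), Msx1 (−0.48) and Vgf (2.53). Msx1 was −0.83 in cells with spike-in alone and −0.72 without the doubtful members. The all-non-member group holds the cells with glial or vascular markers, and presence above 50 RPKM counts fewer cells; for the other alternatives the cause was not tested. Over all alternatives, 2789 values of single genes stayed within the interval of their main value, and the rest left it. Of those that left it, 11 had changed sign from a main value whose interval held a single sign. Changes of sign were not counted for genes whose interval held both signs. Counting error over 13 to 43 members a stage limits the precision.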

Other observations

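Levels within the Nxph4-high cells also differed between E18.5 (17 cells) and P7 (13 cells). The genes below were chosen after their values were seen, the intervals are not adjusted for the number of genes looked at, and whether members and other cells differed in these differences was not tested. Nefl, a neurofilament subunit, was present in 84.6% of members at P7 and 47.1% at E18.5, a difference of 37.6 points (2.86 to 61.2), and in the other cells the difference was −8.52 points (−21.9 to 6.55). Robo2, a receptor of Slit guidance proteins, was present in 76.9% against 35.3%, and Cacna1g, a T-type calcium channel, in 61.5% against 23.5%.

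C1ql1 was present in 46.2% of members at P7 and 88.2% at E18.5, a difference of −42.1 points (−66.5 to −8.62), and in the other cells the difference was 7.39 points (−3.93 to 21). Ntn1, the guidance factor netrin, had the same shares in members, and in the other cells it differed by −28.2 points (−42.1 to −13.2). Chd7 was present in 61.5% of members at P7 against 94.1% at E18.5, and Zfp385b in 15.4% against 52.9%. The dissociation kit and the spike-in, present at E18.5 and absent at P7, also differed between these stages. So did depth, with a median of 996852 reads in members at E18.5 and 2651881 at P7. The part of the kit, the spike-in and depth was not tested. Within P1, C1ql1 was present in 8 of 9 members with spike-in (median 159.8 RPKM) and 20 of 34 without (median 22.5 RPKM). These sets differed in depth as well, with medians of 825793 and 2015582.5 reads.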
